A study of Mus musculus with 20 samples.

Results

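The set described here was the oxidative phosphorylation machinery: the protein-coding genes whose mouse symbol starts with Nduf, Uqcr, Sdh, Cox4 to Cox8 or Atp5, together with the mitochondrially encoded subunits mt-Nd, mt-Co, mt-Cytb and mt-Atp. It held 111 gene identifiers of the 57180 in the count table, under 110 symbols, because Atp5o had 2 identifiers. Of these, 98 were encoded in the nucleus and 13 in the mitochondrial genome. The nuclear members fell into 44 for complex I, 8 for complex II, 8 for complex III, 20 for complex IV and 18 for complex V. The symbols also took in 12 assembly factors (8 Ndufaf and 4 Sdhaf genes), which help to build complexes I and II and are not part of them. Cyc1, Cycs, Usmg5 and Atpif1 lay outside the set because their symbols do not start with these letters. Ndufb1-ps and Ndufb4c start with Nduf but lay outside it because they are not annotated as protein-coding.

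The libraries came from mouse brain, sequenced as stranded poly(A)-selected messenger RNA. Streptozotocin (STZ), a compound that kills insulin-producing beta cells, had been given once by intraperitoneal injection at 200 mg/kg to induce painful diabetic neuropathy, and control mice had received vehicle. Tissue was taken at week 7 as microdissected punches of the paraventricular thalamic nucleus (PVT), a midline thalamic nucleus, and of the posterior insular cortex (pIC). Each region had 4 control and 6 STZ libraries, 20 in all. No age, sex, strain or genotype was given in the labels, and nothing in them says that libraries of a group came from separate animals, so the p-values measure the spread between these libraries, which may in part be technical. The same library labels recur in both regions, without a statement that a shared label marks the same animal. The main tests did not pair them.

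Oxidative phosphorylation passes electrons from NADH (complex I) and succinate (complex II) through complex III and cytochrome c to oxygen at complex IV, cytochrome c oxidase. Complexes I, III and IV pump protons across the inner mitochondrial membrane, and complex V, the ATP synthase, uses the gradient to make ATP. The mitochondrial genome encodes core subunits of complexes I, III, IV and V, while every subunit of complex II is nuclear. Neurons depend heavily on this pathway, and several complex IV subunits exist as a common form and a form known mainly from heart, skeletal muscle or testis.

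Libraries held between 17939029 and 25533369 counts. Levels are given as CPM, counts scaled to the size of the library, after scaling by the trimmed mean of M-values (TMM), and per kilobase of exon wherever genes are compared with each other. Of 12 thalamus neuron markers, 9 were called higher in PVT than in pIC in control mice. Among 12 markers of cortical excitatory neurons, 8 were called lower and 1 higher. Over all genes, 25.5% were called higher and 22.4% lower. Punches also differed in what else they held. Summed choroid plexus markers ran from 3042 to 6184 CPM in PVT control and from 1379 to 3422 CPM in PVT STZ libraries, against 7.84 to 147 CPM in pIC. Summed thalamus neuron markers ran from 463 to 1022 CPM in PVT control and from 448 to 1940 CPM in PVT STZ libraries, and were lowest in score in control replicate 2 and STZ replicates 1 and 2. PVT control replicate 4 held 11827.5 CPM of Gh, the pituitary growth hormone gene. Fewer cells of a type and less RNA per cell cannot be told apart in such tissue.

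The promoters of paired complex IV isoforms are shown because the largest regional differences of the set lay in these pairs. Each line gives the 250 bases before the annotated start of the gene, 5′ to 3′ on its own strand, from RefSeq on build GRCm38.p6. Capitals mark 3 motifs searched on both strands: the NRF1 core (GCGCA, any base, then GCGC), the ETS family core CCGGAAG bound by GABP, and the CCAAT box CCAAT. NRF1 and GABP are known activators of nuclear respiratory genes. The windows are chr5:115348959-115349208 on the minus strand for Cox6a1, chr7:30626115-30626364 minus for Cox6b1, chr7:4753095-4753344 minus for Cox6b2, chr9:79759854-79760103 minus for Cox7a2, chr7:30183921-30184170 plus for Cox7a1, chr19:7217617-7217866 minus for Cox8a and chr7:140900447-140900696 minus for Cox8b.
Cox6a1: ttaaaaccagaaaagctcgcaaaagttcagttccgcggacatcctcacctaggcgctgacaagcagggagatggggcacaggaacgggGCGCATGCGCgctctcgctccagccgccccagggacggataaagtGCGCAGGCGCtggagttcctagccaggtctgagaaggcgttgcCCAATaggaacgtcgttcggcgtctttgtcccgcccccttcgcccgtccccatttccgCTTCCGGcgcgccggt
Cox6b1: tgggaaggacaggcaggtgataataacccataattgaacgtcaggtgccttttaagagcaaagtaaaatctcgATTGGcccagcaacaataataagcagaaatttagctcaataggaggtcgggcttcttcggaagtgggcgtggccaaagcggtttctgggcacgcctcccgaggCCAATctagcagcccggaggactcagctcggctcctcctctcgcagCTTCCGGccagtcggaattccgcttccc
Cox6b2: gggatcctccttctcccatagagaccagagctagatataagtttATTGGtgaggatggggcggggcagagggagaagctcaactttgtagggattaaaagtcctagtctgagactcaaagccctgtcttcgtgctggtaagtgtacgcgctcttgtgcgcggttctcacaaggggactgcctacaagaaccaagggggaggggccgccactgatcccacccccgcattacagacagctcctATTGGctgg
Cox7a2: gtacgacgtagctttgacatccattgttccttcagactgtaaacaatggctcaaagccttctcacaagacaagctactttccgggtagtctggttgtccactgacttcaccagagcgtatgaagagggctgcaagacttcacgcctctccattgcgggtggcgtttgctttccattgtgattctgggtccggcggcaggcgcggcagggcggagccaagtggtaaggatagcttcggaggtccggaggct
Cox7a1: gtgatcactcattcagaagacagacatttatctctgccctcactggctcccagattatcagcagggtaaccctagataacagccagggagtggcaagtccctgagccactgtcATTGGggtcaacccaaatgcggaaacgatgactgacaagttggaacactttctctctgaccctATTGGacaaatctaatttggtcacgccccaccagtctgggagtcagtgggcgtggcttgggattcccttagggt
Cox8a: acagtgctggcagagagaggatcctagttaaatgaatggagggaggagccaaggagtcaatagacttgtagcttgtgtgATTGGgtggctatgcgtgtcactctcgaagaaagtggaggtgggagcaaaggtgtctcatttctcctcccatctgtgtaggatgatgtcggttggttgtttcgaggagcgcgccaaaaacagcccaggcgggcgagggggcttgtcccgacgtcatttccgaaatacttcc
Cox8b: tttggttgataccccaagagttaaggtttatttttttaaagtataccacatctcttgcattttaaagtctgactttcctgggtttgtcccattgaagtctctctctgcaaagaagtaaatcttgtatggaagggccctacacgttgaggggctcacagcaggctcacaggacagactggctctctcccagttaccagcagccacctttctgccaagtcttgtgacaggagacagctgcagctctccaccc

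The window of Cox6a1 held 2 NRF1 cores, 1 ETS core and 26 CpG dinucleotides. Cox6b1 had 1 ETS core and 14 CpG against 8 CpG in Cox6b2. Cox7a2 had 14 CpG against 4 in Cox7a1, and Cox8a had 11 against 1 in Cox8b. In these 3 pairs the common form had more CpG than its partner. CCAAT boxes numbered 2 in both Cox6b1 and Cox6b2, 0 in Cox7a2 against 2 in Cox7a1, and 1 in Cox8a against 0 in Cox8b. Among the members, 78 genes had a promoter in the table, and 14 of them (17.95%) held the NRF1 core, against 3.77% of the 27025 genes with a promoter there. The ETS core was present in 16 members (20.5%) against 7.14% of genes, and a CCAAT box in 34 (43.6%) against 34.2%. The members' windows had a median of 14 CpG and those of all genes a median of 5. These are letter matches in a fixed window and were not tested as binding sites.

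The 13 mitochondrially encoded members made up 5.30% ± 0.355 (SD, n = 4) of counts in PVT control, 5.52% ± 0.310 (SD, n = 6) in PVT STZ, 5.31% ± 0.568 (SD, n = 4) in pIC control and 5.16% ± 0.356 (SD, n = 6) in pIC STZ libraries. The 98 nuclear members together made up 1.23% ± 0.0554 and 1.20% ± 0.0346 in PVT and 1.145% ± 0.0433 and 1.14% ± 0.0325 in pIC, in control and STZ libraries respectively. The ranges of control and STZ libraries overlapped in both regions for both shares. Counts on the mitochondrial members exceeded those on the nuclear members by a factor of 4.002 to 5.08 in every library. No test was run on these shares.

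**Figure D1:**
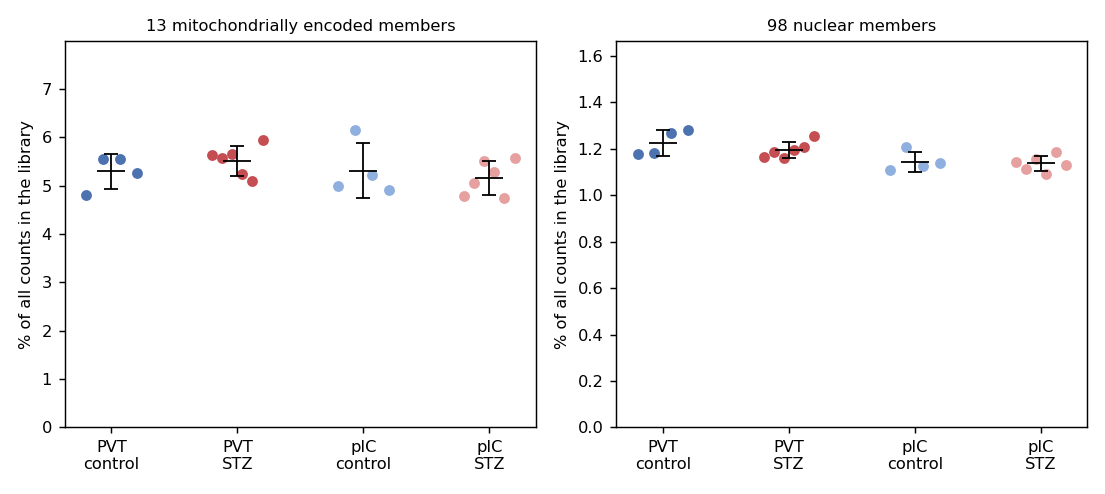
Share of all counts (%, y axis from 0) on the mitochondrially encoded members (left) and on the nuclear members (right) in each library of the 4 groups; points are libraries, the bar is the mean and the whiskers are 1 SD. The mitochondrial share lies between 4.74% and 6.14% and the nuclear share between 1.09% and 1.28% in the 20 libraries.

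For several mitochondrial genes most counts stood on another identifier. The nuclear genome holds pseudogene copies of mitochondrial DNA whose sequence is nearly identical, so that reads from one can be counted on the other. Counts on mt-Co2, a core subunit of complex IV, were 2.46% to 4.01% of the sum of mt-Co2 and its copy Gm28661, which is identical over 681 bases. For mt-Co3 and Gm28437 the share on the member was 3.43% to 6.77%, and for mt-Atp6 and Gm10925 it was 8.73% to 14.1%. The members mt-Nd3 and mt-Nd4l held 13.6% to 17.89% and 20.96% to 33.8% of their pairs with Gm28438 and Gm10222. By contrast mt-Co1 held 98.8% to 99.99% of its pair with Gm29216. Counts were also split for the nuclear members Ndufb4, with 35.0% to 44.7% against Ndufb4c, and Atp5l, with 91.9% to 95.2% against Gm10221. Levels of these members are uncertain, and the order of levels among mitochondrial genes was not read. With the copies, mitochondrial members reached 6.77% to 8.75% of counts.

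**Figure D2:**
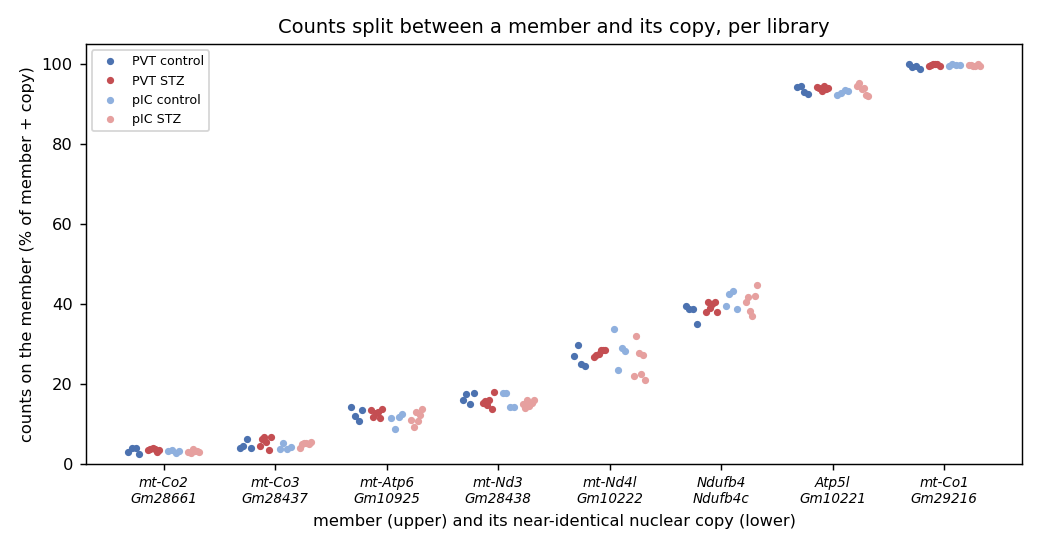
Counts on a member as a percentage of the sum of the member and its near-identical nuclear copy (y axis), for 8 pairs (x axis); each point is a library, coloured by group. In every library, mt-Co2 holds 2.46% to 4.01% of its pair and mt-Co1 98.8% to 99.99%.

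Levels of the nuclear members are compared with each other per kilobase. The leading genes of each complex are named here after their values were seen. In PVT control libraries complex IV was led by Cox8a, Cox6a1 and Cox4i1, with mean levels of 436, 328 and 285 CPM per kilobase. In complex V the catalytic core subunits Atp5a1 (alpha) and Atp5b (beta) stood at 280 and 266 CPM per kilobase. The highest nuclear member of complex I was Ndufc2 at 139, of complex II Sdha, the flavoprotein that oxidizes succinate, at 113, and of complex III Uqcr10 at 124 CPM per kilobase. At the other end lay the restricted forms of complex IV subunits. Cox6a2 was at 6.93, Cox8b at 4.42, Cox6b2 at 3.41, Cox7a1 at 2.70, Ndufa4l2 at 2.29 and Cox4i2 at 1.67 CPM per kilobase in the same libraries. Cox7b2 had between 0 and 6 counts in a library and Cox8c, a testis form, had none. Both, and the second Atp5o identifier, failed the filter on low counts, so 108 of the 111 members were tested in PVT. In pIC and between regions in STZ mice Cox8b failed it as well, which left 107.

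The spread between replicates was summarised over the 108 tested members, nuclear and mitochondrial together. Their median within-group SD of log2 CPM was 0.12 in PVT control, 0.07 in PVT STZ, 0.09 in pIC control and 0.08 in pIC STZ libraries. Over 17427 tested genes these medians were 0.17, 0.16, 0.13 and 0.15. Most members are abundant, and among genes with a mean of at least 20 CPM the medians were 0.13, 0.11, 0.09 and 0.10, against 0.11, 0.07, 0.09 and 0.07 for the 94 members at that level.

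The first comparison asked whether oxidative phosphorylation transcripts differed between STZ and control mice in PVT. No member passed the test: 0 of 108 had an adjusted p under 0.05 by edgeR's quasi-likelihood test with Benjamini-Hochberg adjustment over 17076 genes, where 2.07% of genes passed. Unadjusted, 9 members had a p under 0.05. The median log2 fold change of the members was 0.00, and that of all genes tested was also 0.00. For 100 of the 108 members the 95% interval of the change lay within 1.5-fold in either direction. The other 8 were Atp5g2, Cox4i2, Cox6a2, Cox6b2, Cox7a1, Cox8b, Ndufa4l2 and mt-Co3. With 4 and 6 libraries, changes inside these intervals could not be told from 0 or were too small to pass the adjustment.

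By complex, the medians stayed near 0 in PVT. The 44 nuclear members of complex I had a median log2 fold change of 0.00, the 8 of complex II 0.01, the 8 of complex III 0.00, the 18 tested of complex IV 0.01 and the 17 tested of complex V -0.03. The 13 mitochondrially encoded members had a median of 0.10, with 10 of 13 above 0 and 0 called. Among them mt-Nd5, a core proton-pumping subunit of complex I, had 3024, 3799, 3280 and 2841 CPM in control libraries and 3418, 3629 and 4103 CPM as the lowest, median and highest STZ library. The ranges overlapped, and its log2 fold change was 0.19 (SE 0.09, adjusted p = 0.272, edgeR). For mt-Co1 the change was 0.14 (SE 0.07, adjusted p = 0.349).

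The smallest p among members in PVT belonged to Cox8b, the form of subunit 8 known from rodent heart and muscle. It had 39, 24, 18 and 67 counts in the control libraries, which is 1.99, 1.116, 0.803 and 2.46 CPM. The 67 counts were in replicate 4, the library with 11827.5 CPM of Gh. In STZ libraries Cox8b had 0.245, 0.593 and 0.881 CPM as the lowest, median and highest value. The highest STZ library lay above the lowest control library. The log2 fold change was -1.48 (SE 0.40) with an adjusted p of 0.0910 by edgeR. With DESeq2 the adjusted p was 0.0225, with the thalamus marker score as a covariate 0.0337, and in 1 fit of the 20 libraries 0.0378. Over all genes these fits called 904, 1083 and 679, against 353 in the main fit. Without control replicate 4, 0 members and 143 of 17223 genes were called. Choroid plexus and ependyma markers moved with Cox8b: 0 of 12 and 8 of 12 were called lower in STZ, with median log2 fold changes of -0.73 and -0.76. Of 12 oligodendrocyte and myelin markers 3 were called lower, all 12 stood below 0 and the median was -0.30, and their part in the members' values was not tested. With the choroid plexus score as a covariate the change of Cox8b was -0.75 (adjusted p = 0.666). This fit called 61 of 17076 genes, against 353 in the main fit. The score was mostly higher in control (5.18 to 6.11) than in STZ libraries (4.18 to 5.29), so the fit cannot separate it well from treatment. Cox6b2, which stood at -0.46 (SE 0.19, adjusted p = 0.240), was at -0.04 in that fit.

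Cox7a1, the heart and muscle form of subunit 7a, separated the groups in PVT. Control libraries had 1.17, 1.35, 1.74 and 1.51 CPM and STZ libraries 0.601, 0.929 and 1.14 CPM as lowest, median and highest. The groups did not overlap, yet the log2 fold change of -0.68 (SE 0.21) had an adjusted p of 0.127 by edgeR, and it was -0.77 with the choroid plexus score as a covariate. Groups without overlap were found for 3 of the 108 members, Cox7a1, Ndufv3 and Sdhaf4, against 6.14% of all genes tested in PVT. Sdhaf4, an assembly factor of complex II named here after its values were seen, had a log2 fold change of -0.21 (SE 0.07, adjusted p = 0.144).

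Ndufv3, an accessory subunit of the NADH-oxidizing part of complex I, had lower values in STZ than in control libraries of both regions and is named for this after its values were seen. In PVT it had 53.0, 51.2, 52.4 and 61.2 CPM in control libraries. The lowest, median and highest STZ library had 46.1, 46.8 and 49.3 CPM. The 61.2 CPM was in control replicate 4, the library with 11827.5 CPM of Gh. In pIC Ndufv3 had 44.7, 46.8, 46.6 and 45.2 CPM against 42.0, 43.3 and 44.0 CPM. Control and STZ libraries did not overlap in either region. The log2 fold changes were -0.19 (SE 0.06) in PVT and -0.09 (SE 0.05) in pIC, with adjusted p = 0.131 and 0.461 by edgeR. In 1 fit of the 20 libraries the PVT change was -0.20 with an adjusted p of 0.0207. The member with the smallest p among those above 0 in PVT was Ndufaf1, a complex I assembly factor, at 0.17 (SE 0.08, adjusted p = 0.261).

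**Figure D3:**
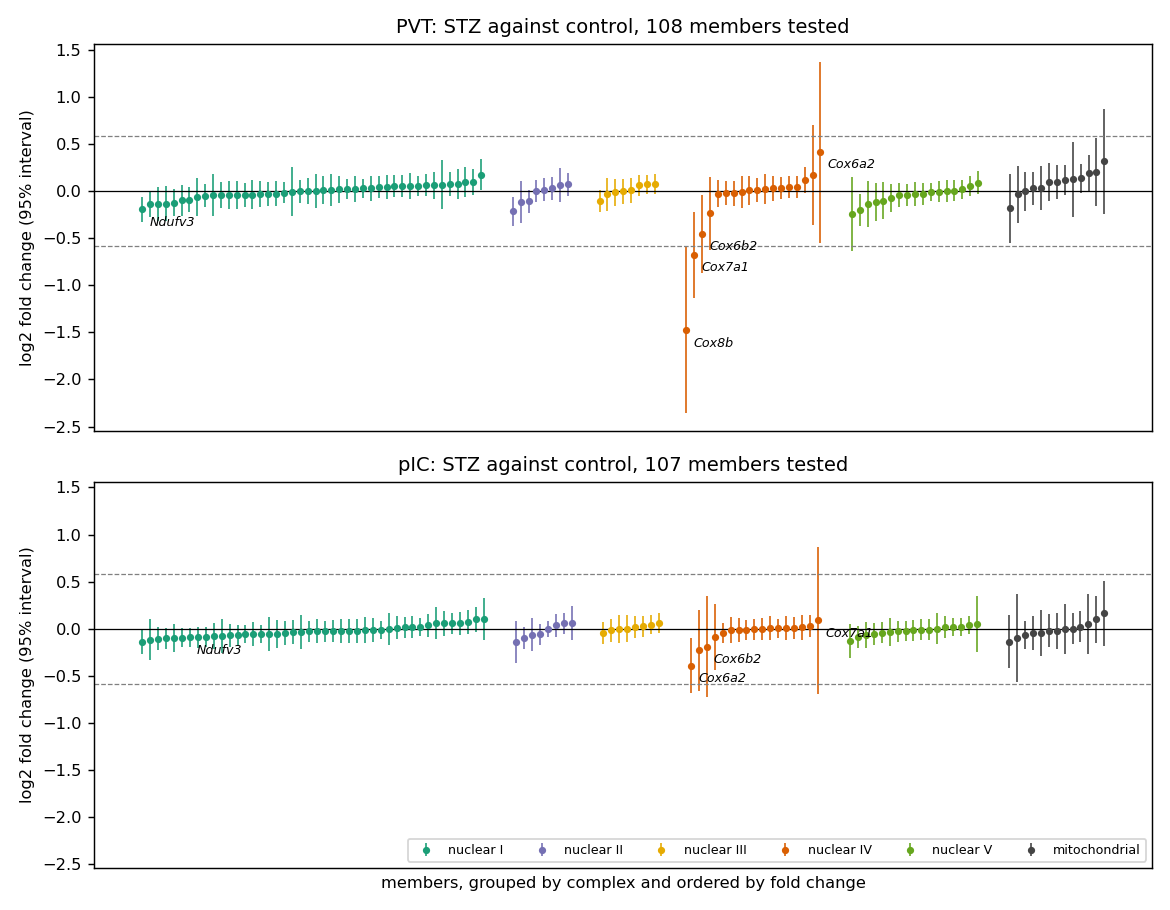
Log2 fold change of STZ against control with its 95% interval (y axis) for each tested member of PVT (top, 108) and pIC (bottom, 107), grouped by complex and genome and ordered by fold change; dashed lines mark 1.5-fold. Intervals of 100 members in PVT and 103 in pIC lie between the dashed lines, and in PVT Cox8b (-1.48) and Cox7a1 (-0.68) lie farthest below 0.

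The same comparison in pIC gave 0 of 107 members called, where 1.4% of 16189 genes were called, and 1 member with an unadjusted p under 0.05. The median log2 fold change of the members was -0.02 against 0.00 for all genes tested. Intervals lay within 1.5-fold for 103 members, the other 4 being Cox4i2, Cox6a2, Cox6b2 and Cox7a1. Groups did not overlap for 1 member, Ndufv3, against 4.44% of genes. The 13 mitochondrially encoded members had a median of -0.02.

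Cox6a2, the heart and muscle form of subunit 6a, also known from fast-spiking parvalbumin interneurons, had the smallest p in pIC. Control libraries had 8.60, 10.6, 9.66 and 8.10 CPM, and STZ libraries had 4.95, 7.31 and 8.63 CPM as lowest, median and highest. The groups overlapped, and the log2 fold change was -0.39 (SE 0.13, adjusted p = 0.232, edgeR). Of 10 parvalbumin interneuron markers 0 were called, and their score, the mean log2 level, ran from 6.46 to 6.68 in control and from 6.49 to 6.80 in STZ libraries. In STZ replicate 4, the library with the lowest Cox6a2, that score was 6.68, although Pvalb itself was lowest there at 41.0 CPM. Ndufaf4, an assembly factor, had the smallest p above 0, at 0.10 (SE 0.06, adjusted p = 0.567).

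A difference between the regions in the STZ effect was not detectable. The interaction test called 0 of 108 members and 0% of 17427 genes, and 0 members had an unadjusted p under 0.05. The 95% interval of the difference lay within 1.5-fold for 98 members. Cox8b had the smallest p below 0, with a difference of -2.19 (SE 1.10, adjusted p = 1.00, edgeR), and mt-Co1 the smallest above 0, at 0.19 (SE 0.10). For Cox6a2 the difference was 0.79 (SE 0.47), with a change of 0.41 (SE 0.43) in PVT and of -0.39 in pIC. The PVT change turned to -0.20 with the choroid plexus score as a covariate.

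Genes around the pathway were counted by lists. In PVT, STZ against control, 0 genes were called among 52 tested assembly factors and electron carriers, 28 genes of mitochondrial DNA maintenance and transcription, 18 regulators of mitochondrial biogenesis, 27 genes of the tricarboxylic acid cycle, 15 uncoupling proteins and metabolite carriers, 78 mitochondrial ribosome proteins and 79 cytosolic ribosome proteins. List medians ran from -0.06 for the cytosolic ribosome to 0.19 for the regulators of biogenesis. In pIC 1 gene of these lists was called, Ucp2, an inner membrane carrier, which rose by 0.52 (SE 0.11, adjusted p = 0.0348, edgeR). That call was lost without any 1 of the pIC control libraries, with adjusted p between 0.0567 and 0.137, without STZ replicate 1 (0.0646) or 4 (0.0799), and in 1 fit of the 20 libraries (0.217).

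The regions were then compared within control mice, asking how oxidative phosphorylation transcripts differ between the thalamic and the insular punches. Here 16 of 108 members were called (14.8%), against 47.8% of 16614 genes. Of these 5 were higher in PVT and 11 lower, while 25.5% of genes were called higher and 22.4% lower. Complex IV held 6 of the calls among 18 tested members, complex I 8 among 44, complex II 1 among 8, complex V 1 among 17 and complex III 0 among 8. The median member stood at -0.04 against 0.02 for all genes. Scaling by the upper quartile moved the median of all genes to 0.10 and turned the split of member calls to 10 higher and 5 lower. Without pIC control replicate 3 the count was 10 (3 higher, 7 lower) and without pIC control replicate 4 it was 9 (3 higher, 6 lower). These fits called 7252 and 6771 of all genes. Pairing same-labelled libraries across the regions gave 10 calls (5 higher, 5 lower), where 7138 of all genes were called. The members said below to be higher or lower kept their sign under each scaling tried.

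In STZ mice, which share no library with the control mice, 23 of 107 members were called (21.5%), against 49.1% of 16489 genes. Of these 7 were higher in PVT and 16 lower, where 26% of genes were called higher and 23.1% lower. Upper quartile scaling gave 12 higher and 8 lower, and relative log expression scaling 5 higher and 20 lower. Complex IV held 9 calls among 17 tested members, 8 of them lower in PVT. The members called in both kinds of mice were 9, which is 56.3% of the control calls and 39.1% of the STZ calls, and each had the same direction in both. Of the 107 members tested in both, 83 had the same sign. Neither the shared calls nor the shared signs were counted over all genes, so they cannot be set against genes at large. Atp5d, Cox6a1, Cox6b2, Cox8a, Ndufaf1 and Ndufv3 were called in both under every alternative tried.

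**Figure D4:**
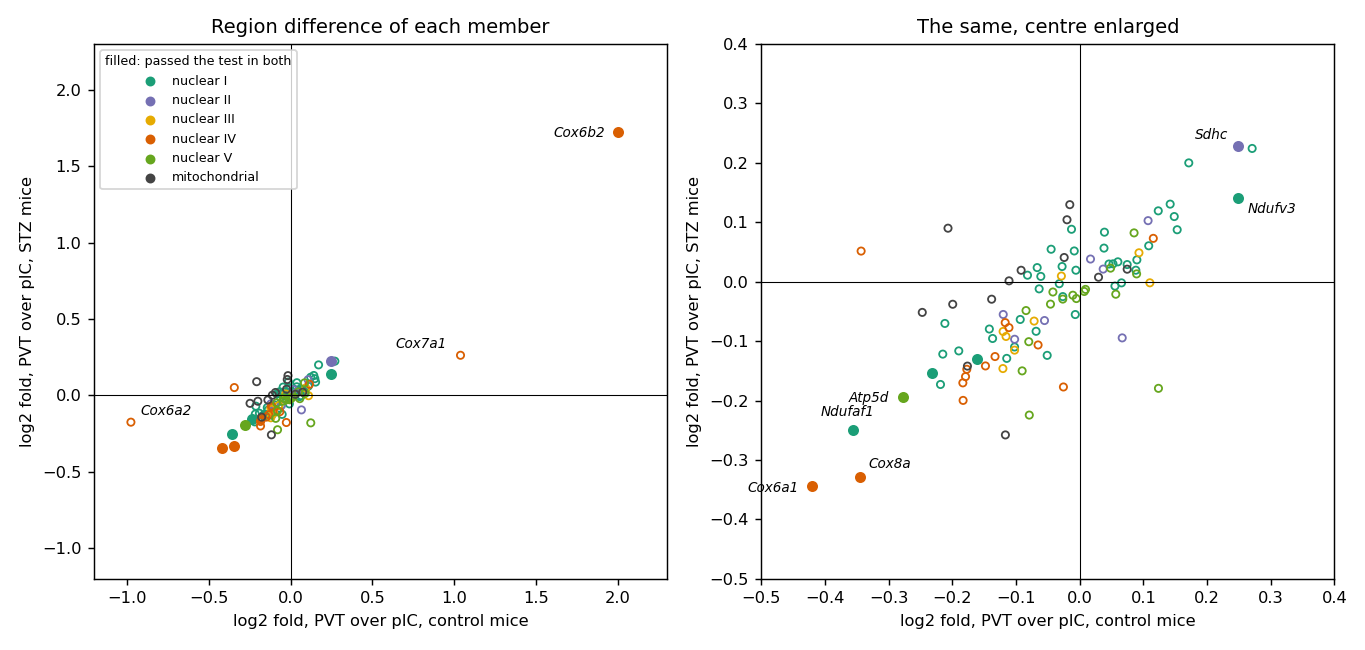
Log2 fold of PVT over pIC in control mice (x axis) and in STZ mice (y axis) for the 107 members tested in both, coloured by complex and genome, with the whole range on the left and the centre enlarged on the right; filled points are the 9 members called in both. Cox6b2 lies far from the rest at 2.00 and 1.73, and Cox6a1 and Cox8a are the lowest of the filled points.

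Cox6b2, the form of subunit 6b known from testis, had the largest regional difference of the 107 members tested in both kinds of mice. PVT control libraries had 4.34, 3.58, 2.99 and 4.22 CPM and pIC control libraries 0.717, 0.913, 1.18 and 0.967 CPM. In STZ mice the lowest, median and highest values were 1.75, 2.86 and 3.41 CPM in PVT and 0.638, 0.738 and 1.17 CPM in pIC. The regions did not overlap in either kind of mice. Cox6b2 was higher in PVT by 2.00 (SE 0.21, adjusted p = 4.08e-05) in control and 1.73 (SE 0.21, adjusted p = 2.62e-05) in STZ mice, on the log2 scale by edgeR. Its common partner Cox6b1, at 131 to 170.1 CPM in the 20 libraries, stood at -0.07 (SE 0.08, adjusted p = 0.517) and -0.11 (SE 0.04, adjusted p = 0.0544). Per kilobase, Cox6b2 made up 1.64% ± 0.331 (SD, n = 4) of the pair in PVT control and 0.395% ± 0.0907 (SD, n = 4) in pIC control libraries.

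Cox8b was nearly absent from pIC. Control libraries of pIC had 1, 0, 1 and 1 counts, 3 in all, against 148 counts in the PVT control libraries, a scaled ratio of 46.4 with a 95% counting interval of 15.6 to 227. In STZ mice 84 counts stood against 8, a ratio of 9.34 (4.53 to 22.3). These exact intervals cover counting error alone. The edgeR test in control mice gave an adjusted p of 6.67e-05 for Cox8b. All 12 choroid plexus markers and all 12 ependyma markers were called higher in PVT in both kinds of mice, with medians of 7.00 and 4.04 in control mice, and their part in the Cox8b difference was not tested.

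Cox8a, the common form of subunit 8, went the other way. It had 243, 288, 290 and 259 CPM in PVT control and 350.4, 361, 307 and 352 CPM in pIC control libraries, with no overlap. In STZ mice the lowest, median and highest values were 257, 275 and 288 CPM in PVT and 317, 341 and 375 CPM in pIC. Cox8a was lower in PVT by a log2 fold change of -0.35 (SE 0.08, adjusted p = 0.00616) in control and -0.33 (SE 0.05, adjusted p = 8.34e-05) in STZ mice. Cox8b made up 1.03% ± 0.549 (SD, n = 4) of the pair per kilobase in PVT control and 0.352% ± 0.161 (SD, n = 6) in PVT STZ libraries.

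Cox6a1, the common form of subunit 6a, had 207, 256, 243 and 215 CPM in PVT control and 302, 329, 287 and 311 CPM in pIC control libraries. In STZ mice it ran from 236 over a median of 249 to 256 CPM in PVT and from 291 over 319 to 341 CPM in pIC. No PVT library reached the lowest pIC library in either kind of mice. Its log2 fold changes were -0.42 (SE 0.09, adjusted p = 0.00208) and -0.34 (SE 0.04, adjusted p = 3.40e-05, edgeR). The window printed above for Cox6a1 was the richest in CpG and NRF1 cores of the 7. That of Cox8a, also lower in PVT, held 0 NRF1 cores and 0 ETS cores. Whether the windows relate to the regional levels was not tested.

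The restricted partner Cox6a2 was lower in PVT of control mice, where libraries had 3.57, 4.74, 7.68 and 2.87 CPM against 8.60, 10.6, 9.66 and 8.10 CPM in pIC. The log2 fold change was -0.97 (SE 0.27, adjusted p = 0.0138, edgeR), and the regions did not overlap. In STZ mice PVT libraries ranged from 2.95 over a median of 4.76 to 12.4 CPM, overlapping the pIC range of 4.95 to 8.63 CPM. There the change was -0.17 (SE 0.31, adjusted p = 0.672), and without PVT STZ replicate 5 it was -0.51. The difference between these effects is the interaction given above, which was not called. PVT STZ replicate 5, with the most Cox6a2, had the highest thalamus marker score (6.78) of the PVT libraries. Its parvalbumin marker score of 6.39 was the lowest of the 6 PVT STZ libraries, although Pvalb itself was highest there at 76.8 CPM. Whether punch content sets the Cox6a2 level was not tested.

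Cox7a1 was higher in PVT of control mice by 1.04 (SE 0.32, adjusted p = 0.0206, edgeR), with pIC libraries at 1.03, 0.913, 0.392 and 0.461 CPM below each PVT control library. The call was lost without PVT control replicate 3 or pIC control replicate 3 or 4, with adjusted p up to 0.0668. In STZ mice the change was 0.26 (SE 0.27, adjusted p = 0.441) and the ranges overlapped. Its common partner Cox7a2, at 100.4 to 147 CPM, was lower in PVT of STZ mice by -0.20 (SE 0.05, adjusted p = 0.00351) and stood at -0.18 (SE 0.09, adjusted p = 0.109) in control mice.

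**Figure D5:**
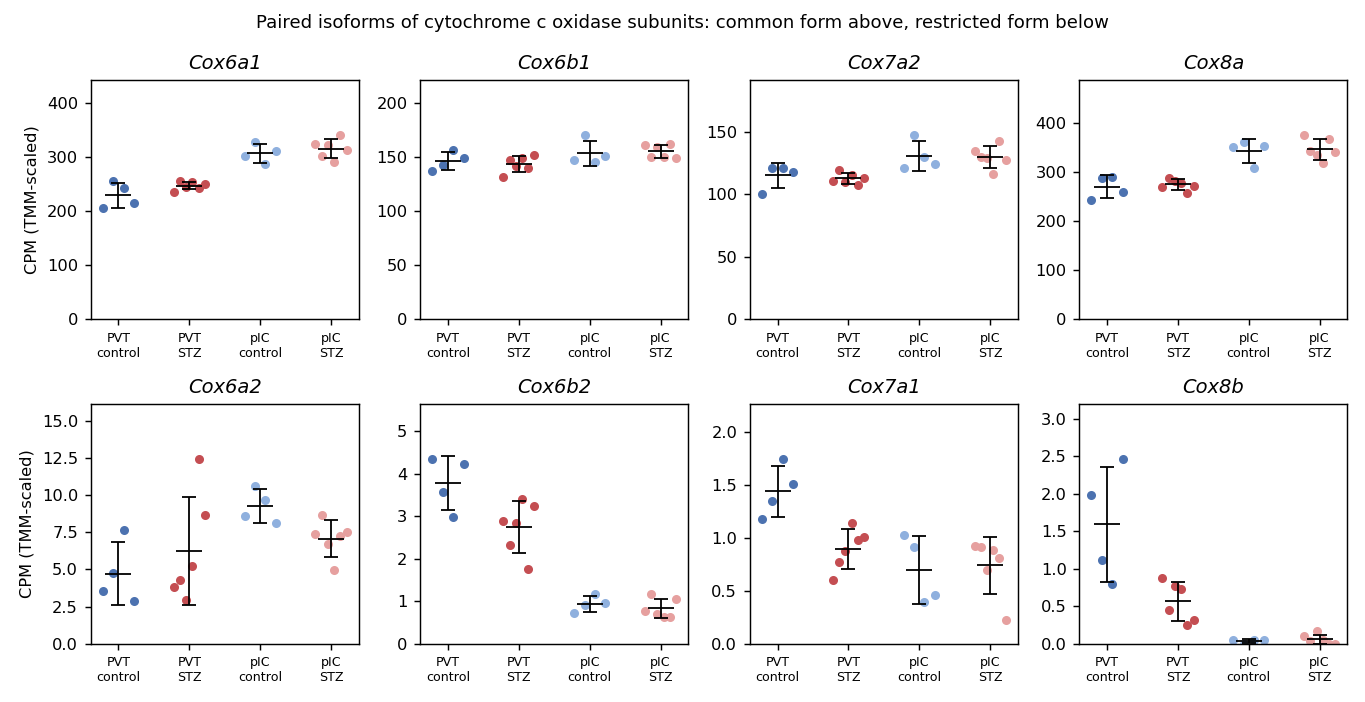
CPM (TMM-scaled, linear y axis from 0) of 4 common complex IV forms (top) and their restricted partners (bottom) in each library of the 4 groups; points are libraries, the bar is the mean and the whiskers are 1 SD. Cox6a1 and Cox8a are lower in PVT than in pIC, whereas Cox6b2 reaches 4.34 CPM in PVT and at most 1.18 CPM in pIC.

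Other complex IV subunits were also lower in PVT, with Cox6c, Cox7b, Cox7c and Ndufa4 named after their values were seen or as fixed partners. In STZ mice Cox5a (-0.16, SE 0.04), Cox6c (-0.17), Cox7b (-0.15), Cox7c (-0.14) and Ndufa4 (-0.13), which is a complex IV subunit despite its name, were lower in PVT with adjusted p between 0.00567 and 0.0454 by edgeR. These 5 stood between -0.18 and -0.13 in control mice, where none was called, and stayed below 0 under every scaling tried. The calls of Cox5a and Cox6c in STZ mice held in each of 21 alternatives, that of Cox7c in 20, of Ndufa4 in 16 and of Cox7b in 9. With upper quartile scaling the adjusted p was 0.101 for Cox7c, 0.160 for Ndufa4 and 0.181 for Cox7b. Ndufa4 also lost its call without pIC STZ replicate 1 or 5, and Cox7b without PVT STZ replicate 1 or 3 or pIC STZ replicate 1, 2, 3, 5 or 6. Cox4i1, the common form of the regulatory subunit 4, had 412 to 518 CPM in the 20 libraries and changes of -0.12 and -0.07, not called. Its hypoxia-linked partner Cox4i2 had 1.06 to 2.32 CPM and was not called in any comparison, nor was Ndufa4l2 at 1.42 to 2.96 CPM. Cox7a2l, a factor in the pairing of complexes III and IV, stood at 0.12 and 0.07, not called.

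Complex I held calls in both directions. Ndufv3 was higher in PVT by 0.25 (SE 0.07, adjusted p = 0.0150) in control and 0.14 (SE 0.04, adjusted p = 0.00656) in STZ mice, and the regions did not overlap. Ndufaf1 had 16.6, 20.8, 20.98 and 18.04 CPM in PVT control against 23.2, 24.2, 24.1 and 26.3 CPM in pIC control libraries. Its changes were -0.36 (SE 0.09, adjusted p = 0.00768) and -0.25 (SE 0.04, adjusted p = 0.000486, edgeR). Ndufv1, which carries the NADH-binding flavin, was lower in PVT of control mice by -0.21 (adjusted p = 0.0206). That call was lost with upper quartile scaling (0.117), without pIC control replicate 4 (0.0550) and with same-labelled libraries paired across the regions. Ndufa13 (0.20, adjusted p = 0.00139) and Ndufb11 (0.13, adjusted p = 0.0243) were higher in PVT of STZ mice, where controls gave 0.17 and 0.14, not called. The call of Ndufa13 held in each of 21 alternatives and that of Ndufb11 in 11. Ndufb11 lost it without PVT STZ replicate 2, 3, 4 or 6 or pIC STZ replicate 2, 4 or 6, and its adjusted p reached 0.0874 with no filter. Of Ndufa13's exon bases 29.98% overlap Tssk6 on the other strand, a gene at 0.87 CPM. For Ndufb11 12.89% overlap Rbm10 on the other strand, a gene at 43.9 CPM. The strand setting of the counting is not given in the sources used here.

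In complex II, Sdhc, a membrane anchor, was higher in PVT by 0.25 (SE 0.08, adjusted p = 0.0195) in control and 0.23 (SE 0.04, adjusted p = 0.000636) in STZ mice. PVT control libraries had 109, 111, 114 and 121 CPM and pIC control libraries 91.0, 108, 91.4 and 93.4 CPM. The control call was lost without PVT control replicate 3 or 4 or pIC control replicate 1, 3 or 4, with adjusted p up to 0.0678. Sdha was higher in STZ mice by 0.10 (SE 0.04, adjusted p = 0.0287) and stood at 0.11 (adjusted p = 0.214) in control mice. Its call in STZ mice held in 11 of 21 alternatives and was lost with relative log expression scaling (0.0559), without PVT STZ replicate 2, 5 or 6 and without pIC STZ replicate 1, 4 or 6, with adjusted p up to 0.104. Sdhb, the iron-sulfur subunit, stood at -0.12 and -0.06 and Sdhd, the other anchor, at 0.04 and 0.02, none called. In complex V, Atp5d, the delta subunit of the central stalk, had 158, 171, 166 and 159 CPM in PVT control against 190.3, 215, 191 and 195 CPM in pIC control libraries. It was lower in PVT by -0.28 (SE 0.07, adjusted p = 0.00670) and -0.19 (SE 0.04, adjusted p = 0.00268, edgeR). Of its exon bases 3.53% overlap Cbarp on the other strand, a gene at 302 CPM. The 3 genes for the c ring, which share one mature protein, were not called in any comparison: Atp5g1 at 152 to 178, Atp5g2 at 4.13 to 8.04 and Atp5g3 at 229 to 275 CPM.

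The mitochondrially encoded members were not called between regions. Medians were -0.11 in control and 0.01 in STZ mice, and 11 of 13 were below 0 in control mice against 5 of 13 in STZ mice, a difference that was not tested as a list. The largest was mt-Co1, with 19372, 23069, 22862 and 19978 CPM in PVT control against 24195, 29388, 23945 and 23610 CPM in pIC control libraries. Regions did not overlap, at a change of -0.25 (SE 0.10, adjusted p = 0.0700, edgeR). Without PVT control replicate 2, the control library lowest in thalamus markers, mt-Co1 (-0.30, adjusted p = 0.0462), mt-Nd4l (-0.43, 0.0132) and mt-Nd5 (-0.30, 0.0218) were called. These were 3 of the 13, where 8145 of 16823 genes were called in the same fit. With all control libraries kept, adding the nuclear copies to the members left mt-Co2 at -0.12, mt-Co3 at -0.15, mt-Atp6 at -0.16 and mt-Nd3 at 0.01, none called. In that fit mt-Nd4l stood at -0.11, against -0.21 without its copy, and was not called either. The copies were not added in the fit without PVT control replicate 2.

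Genes around the pathway were counted between the regions too. In control mice 15 of 52 assembly factors and electron carriers were called (28.8%; 5 higher, 10 lower in PVT), 10 of 27 genes of the tricarboxylic acid cycle (3 and 7), 8 of 18 regulators of biogenesis (3 and 5), 11 of 28 mitochondrial DNA genes (6 and 5) and 12 of 78 mitochondrial ribosome proteins (3 and 9). Their shares ran from 15.4% to 44.4%, where 47.8% of all genes were called. In STZ mice the same lists gave 17, 12, 10, 10 and 21 calls, from 26.9% to 55.6% against 49.1% of all genes. Etfb and Etfa, the electron transfer flavoprotein that feeds fatty acid electrons into the chain, were higher in PVT by 0.56 and 0.52 in control and 0.49 and 0.34 in STZ mice. Ttc19, a complex III factor, was lower by -0.56 and -0.31. In the cycle, Idh2, the mitochondrial NADP isocitrate dehydrogenase, was higher by 0.84 and 0.67 and Pdk1, a kinase that inhibits pyruvate dehydrogenase, lower by -0.62 and -0.75. Of the cytosolic ribosome proteins, 41 were higher and 0 lower of 79 in control mice, and 53 were higher and 3 lower in STZ mice, with medians of 0.25 and 0.17. Myelin markers moved with the regions too: all 12 were higher in PVT in both kinds of mice, with medians of 1.19 and 0.94, and 7 of 10 general neuron markers were lower, with medians of -0.49 and -0.36. Their part in the members' differences was not tested.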

How the data were processed

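The authors deposited a table of raw counts per Ensembl gene identifier, 1 column per library. Reads were aligned to build GRCm39 (mm39), per the submitters' processing notes; which aligner, counter, strand setting and annotation were used is not given in the sources used here. Symbols were matched for 51884 of 57180 identifiers.

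Counts were analysed in R 4.3.3 with edgeR 4.0.16: genes were kept by filterByExpr (minimum count 10, minimum total 15), scaled by TMM and tested with the robust quasi-likelihood test, fitted on the groups compared (20 libraries for the interaction) without a replicate block, with Benjamini-Hochberg adjustment over all genes tested. Called means an adjusted p under 0.05. Fold changes are log2 and SE is their standard error. The code was tested on simulated data. Totals of 17939029 to 25533369 counts per library set the precision. Intervals of ratios cover counting error alone.

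The members and lists were chosen with earlier results of these data known. Named members are every called one, or the 6 with the smallest p in each direction where more than 12 were called, 1 in a direction without calls, the isoform pairs, the Sdh subunits and the mitochondrial members; from each list, up to 3 called genes. Copies were found by sequence match to GRCm38 transcripts. Alternatives were other scalings and filters, DESeq2 1.42.0, a single fit of 20 libraries, marker scores as covariates, a replicate block and leaving out each library. Adding pseudogene copies and leaving out 3 PVT libraries were chosen after seeing the data.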

Additional observations from a re-analysis of the deposited data

Results flagged for a closer look

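A value was listed when, within a group of 4 or 6 libraries, its distance to the nearest library took up most of the range of that group (Dixon's test at the 95% level). Of 176 groups of values examined over 42 members and the shares, 9 were listed, where chance gives about 1 in 20. In pIC control replicate 2, Sdhc (107.9 CPM, next 93.44), Ndufb11 (82.07, next 74.41) and mt-Co1 (29387.7, next 24195) were the highest of their group, and Cox8b was the lowest, with 0 CPM where the next library had 0.0448. The other 5 fell in 5 libraries. Cox7a1 was lowest in pIC STZ replicate 6 at 0.2234 CPM and Ndufa13 highest in pIC STZ replicate 3 at 94.53 CPM. In PVT, Ndufa4l2 was lowest in STZ replicate 4 at 1.422 CPM, Ndufaf1 in STZ replicate 5 at 19.48 CPM and mt-Atp8 in control replicate 1 at 102.4 CPM.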

How the results depend on the processing

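No called result changed direction. In PVT, 0 members called became 1 with DESeq2 and 1 with the thalamus score as a covariate (Cox8b in both) and 2 in a single fit of the 20 libraries (Cox8b and Ndufv3). Over all genes these settings called 904, 1083 and 679, against 353 in the main fit. The count of members in PVT stayed at 0 in the other settings, and the counts in pIC and for the difference between regions were 0 in every setting. In these settings with 0 members, 61 to 474 of all genes were called in PVT, 128 to 468 in pIC and 0 to 4 for the difference. With so few calls over all genes, 0 member calls say little about the members in particular. Leaving out 1 library gave 0 to 0 calls in these 3 comparisons, 9 to 16 between regions in control mice (9 without pIC control replicate 4, 10 without pIC control replicate 3) and 17 to 25 in STZ mice. Between regions these fits called 6771 to 8145 of all genes in control and 7391 to 8280 in STZ mice. DESeq2 called 35 members between regions in STZ mice (8 higher, 27 lower) and 8347 of 16489 genes, where the main fit called 23 members and 8089 genes. The cause was not tested. With only nuclear-genome counts as the denominator, the mitochondrial share in PVT STZ was 5.90%, and nuclear shares were 1.31% and 1.28% in PVT and 1.22% and 1.21% in pIC, in control and STZ libraries, by construction higher.

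With the replicate block, calls between regions in control mice fell from 16 to 10 (5 higher, 5 lower; Ndufv1 had an adjusted p of 0.0570), while those in STZ mice were 19 and the other 3 comparisons gave 0. Between regions and for the interaction the block was the library label. Over all genes it gave 7138 calls between regions against 7948 in control and 8072 against 8089 in STZ mice. For STZ against control the block was the replicate number, which links libraries of different treatment. It gave 72 calls over all genes against 353 in PVT and 240 against 226 in pIC. The labels do not say that a number marks a shared animal. Each label occurs in both regions. Deviations of same-labelled libraries correlated at -0.15 to 0.37 across regions, over 0.1 in 5 of 10. Of 10 PVT libraries, 5 matched their own label best among the pIC libraries of the same treatment. Gh was highest in control replicate 4 in both regions, at 11827.5 CPM in PVT and 35.6 CPM in pIC. The other pIC libraries had at most 1.33 CPM of Gh. Why Gh was high in both libraries of that label was not tested. These values do not decide whether the labels mark pairs, because libraries of a region also differ in punch content. The main tests between regions left the labels out and may therefore ignore a pairing. Genes at a few counts per library, such as Cox8b in pIC, were limited by depth.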
